A study of Mus musculus with 10 samples.

Results

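Genes of 10 matricellular and matrix glycoproteins were described in a pair of mouse melanoma lines, out of 55385 gene identifiers in the deposited values. The 10 genes are Tnc, Thbs1, Thbs2, Thbs3, Fn1, Sparc, Spp1, Egflam, Postn and Tgfbi. They were chosen by symbol, with their difference between the lines in these same libraries already known, so their values are a description and carry no test. RNA of cultured, sub-confluent cells was sequenced, with 5 libraries of the parental line WT31 and 5 of its subline WT31_P5IV. Both groups carry the genotype of the mice that WT31 was derived from, Tyr::NrasQ61K/°; INK4a-/-, which is an oncogenic NRAS transgene under a tyrosinase promoter without the Ink4a tumor suppressor. WT31_P5IV went through 5 rounds of intravenous injection into female C57Bl/6 wildtype mice, recovery from liver metastases and expansion in culture, so the comparison rests on 1 parental line and 1 subline. Neither line was drug-treated, both were grown in RPMI 1640 with fetal calf serum, and no library came from a metastasis. The labels call the 5 libraries of a line biological replicates and do not say what separates them, so no error here reaches beyond these libraries. Each SD is the spread between them. Each standard error (SE) comes from the fitted model and holds counting error as well.

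Matricellular proteins are secreted into the extracellular matrix but do little to hold it together. They bind cell surface receptors, chiefly integrins, and growth factors, and so change how firmly a cell adheres and how it migrates. Fibronectin is structural by comparison and is assembled into fibrils by integrins, and pikachurin, the product of Egflam, links the matrix to dystroglycan. Several of the genes, among them Tnc, Sparc, Spp1 and Postn, are known from work on invasive melanoma and on metastatic niches, where stromal cells can be a source as well as tumor cells.

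The upstream sequences of Tnc, Spp1, Egflam and Thbs2 are shown because these 4 genes had the largest differences of the 10. Each is the 250 bases before a transcription start in RefSeq's annotation of GRCm38.p6, written 5′ to 3′ on the gene's own strand. For Tnc, Spp1 and Egflam 2 starts each were listed, and for Thbs2 1. Only 1 window per gene is shown, and the motifs below are those of the windows shown. Capitals mark every match, on either strand, to the motifs named after them, whose distances run from the start to the first letter of the match. The windows lie at chr4:64047016-64047265 on the minus strand for Tnc, at chr5:104434861-104435110 on the plus strand for Spp1, at chr15:7398396-7398645 on the minus strand for Egflam and at chr17:14694263-14694512 on the minus strand for Thbs2.
Tnc: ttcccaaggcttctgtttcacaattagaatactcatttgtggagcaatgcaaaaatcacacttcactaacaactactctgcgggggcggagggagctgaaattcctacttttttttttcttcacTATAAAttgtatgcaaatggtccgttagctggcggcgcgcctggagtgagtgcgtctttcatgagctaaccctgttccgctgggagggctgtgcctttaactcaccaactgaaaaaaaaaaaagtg
Spp1: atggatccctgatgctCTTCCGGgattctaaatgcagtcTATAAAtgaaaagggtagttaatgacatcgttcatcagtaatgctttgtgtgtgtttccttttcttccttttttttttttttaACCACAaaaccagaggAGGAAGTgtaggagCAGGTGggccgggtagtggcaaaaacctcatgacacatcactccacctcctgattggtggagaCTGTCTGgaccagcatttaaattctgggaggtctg
Egflam: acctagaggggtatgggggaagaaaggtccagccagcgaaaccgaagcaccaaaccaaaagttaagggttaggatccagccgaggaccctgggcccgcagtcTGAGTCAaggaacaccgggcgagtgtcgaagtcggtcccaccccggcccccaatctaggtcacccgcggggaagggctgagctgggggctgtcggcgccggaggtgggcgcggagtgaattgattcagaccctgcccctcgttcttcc
Thbs2: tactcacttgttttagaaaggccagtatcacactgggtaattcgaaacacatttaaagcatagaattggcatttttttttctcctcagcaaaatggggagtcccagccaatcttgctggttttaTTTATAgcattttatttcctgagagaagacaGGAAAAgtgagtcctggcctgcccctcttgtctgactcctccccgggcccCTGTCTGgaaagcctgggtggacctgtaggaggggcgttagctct

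The windows shared few short motifs. The TATA box letters TATAAA stood 126 bases before the start in Tnc, 211 bases before it in Spp1 and, on the other strand, 126 bases before it in Thbs2, and 12.4% of the 32817 upstream windows in the table hold these letters. The AP-1 letters TGACTCA were found in Egflam alone of these 4, on the other strand 148 bases before the start, against 4.46% of all windows. Spp1 held the ETS letters CCGGAAG or AGGAAGT at 234 and 112 bases (14.1% of all windows), the RUNX letters TGTGGT at 128 bases (18.6% with TGTGGT or TGCGGT), the Snail factor E-box CAGGTG at 98 bases (17.2%) and the SMAD letters CAGACAG at 35 bases before its start (6.43% with CAGACAG or GTCTAGAC). Thbs2 held CAGACAG as well, at 45 bases, and the NFAT letters GGAAAA at 95 bases (20.4%). The TEAD letters GGAATG, the Twist factor E-boxes CATATG and CATCTG, and the M-box core CATGTG or CACGTG were in none of the 4 windows, against 12.6%, 17.3% and 17.6% of all windows. The NFAT and ETS letters overlap in their GGAA core, and none of these matches was read as a binding site.

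Libraries held 24255389 to 25750639 estimated counts, and 3 counts, taken as the limit of detection, were worth 0.114 to 0.129 CPM, counts scaled to the size of the library. This limit and all counting intervals cover counting error only. 13620 genes passed the filter on low counts and were fitted together with edgeR's quasi-likelihood model. Of these, 68.5% had an adjusted p under 0.05, 34.6% higher and 33.9% lower in WT31_P5IV, and 9.19% also differed by a log2 fold change of at least 1 in size (3.69% with at most -1). Cdkn2a, the gene that holds Ink4a, had 71 to 84 counts in WT31 and 63 to 84 in WT31_P5IV, which does not show whether the deleted exons were read. In WT31, replicates 2 and 3 stood apart from replicates 1, 4 and 5. Chi-square per degree of freedom between the counts of a pair of libraries was 2.83 for the former pair, 2.31 to 5.64 among the latter, 7.77 to 22.8 across them and 96.5 to 141 between the lines.

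Of the 10 genes, 9 passed the filter and Thbs2 did not. In the direction that the choice of the genes already held, 6 of the 9 were lower and 1 was higher in WT31_P5IV at an adjusted p under 0.05. Of all fitted genes, 33.9% were lower and 34.6% higher. By a log2 fold change of at least 1, 4 of the 9 were lower, against 3.69% of all fitted genes. The ranges of the lines did not overlap for 7 of the 9, against 54.1% of all fitted genes. These shares are given beside the background and are not evidence about the 10 genes, since this contrast selected them. The plot of levels by library shows the 10 genes on 1 scale.

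**Figure D1:**
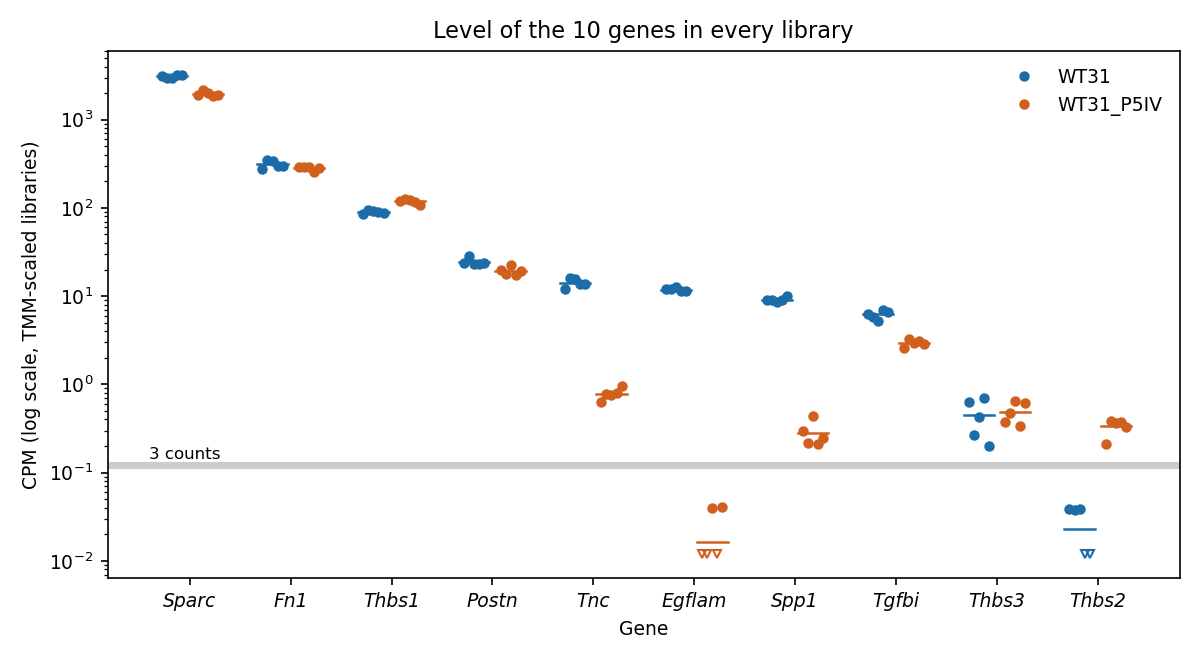
Level of each gene in CPM on a log axis, for the 5 libraries of WT31 (blue) and the 5 of WT31_P5IV (orange), with short lines at the group means. Open triangles mark libraries with 0 counts and the grey band is the value of 3 counts. Tnc, Spp1 and Egflam were far lower in all WT31_P5IV libraries, while Thbs2 was above the band in those libraries only.

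Tenascin C, encoded by Tnc (chr4:63959785-64047015, GRCm38, minus strand), is a hexameric glycoprotein of embryonic and wounded tissue that loosens the hold of cells on fibronectin. Tnc had 312, 422, 398, 345 and 347 counts in WT31 replicates 1 to 5, and 15, 18, 19, 19 and 23 in WT31_P5IV. Every WT31 library was far above every WT31_P5IV library, and no WT31_P5IV library was at the limit of 3 counts. The log2 fold change was -4.18 (SE 0.17). Within WT31, replicates 2 and 3 were the highest, with 15.6 CPM or more against 12.2 to 13.7 CPM in the other libraries, and without both of them the log2 fold change was -4.09. In bulk RNA of a cell line, fewer cells that carry a transcript and less of it per cell cannot be told apart.

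Osteopontin, encoded by Spp1 (chr5:104435118-104441050, plus strand), is a secreted phosphoprotein that binds integrins and CD44. Spp1 had 230, 238, 219, 231 and 251 counts in WT31 and 7, 5, 11, 5 and 6 in WT31_P5IV. WT31 libraries varied little for this gene, with 9.13 ± 0.495 CPM, and WT31_P5IV libraries had 0.282 ± 0.0958 CPM (mean ± SD, n = 5 each). The log2 fold change was -5.01 (SE 0.27). Of the 31-base words of the Spp1 transcripts, 14.3% also occur in Gm42793, an overlapping gene on the same strand, which had 0 to 1 counts in every library.

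Pikachurin, encoded by Egflam (chr15:7206120-7398395, minus strand), is a matrix ligand of dystroglycan best known from photoreceptor synapses. Egflam had 310, 314, 320, 290 and 286 counts in WT31 and 0, 0, 1, 0 and 1 in WT31_P5IV. It was the only one of the 10 genes with no WT31_P5IV library above the limit of detection. Over the 5 libraries of each line, 1520 counts stood against 2, a ratio of 711 with an exact 95% counting interval of 197 to 5880. The gene on the other strand within it, Gm16029, shares 171 words of 31 bases with Egflam and had 5 to 13 counts in every library. Whether the counting used strand is not given in the sources used here.

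The thrombospondins are calcium-binding glycoproteins. Thrombospondin 1 and its close relative thrombospondin 2 are trimers known as inhibitors of angiogenesis that bind CD36 and CD47, and thrombospondin 3 belongs to the pentameric subgroup. Thbs1 (chr2:118111876-118127133, plus strand) had 2196, 2529, 2368, 2288 and 2185 counts in WT31 and 2863, 2938, 3040, 2770 and 2633 in WT31_P5IV. It was the only fitted gene of the 10 that was higher in every WT31_P5IV library, by a log2 fold change of 0.40 (SE 0.06). Thbs2 (chr17:14665500-14694235, minus strand) had 1, 1, 1, 0 and 0 counts in WT31 and 5, 9, 9, 9 and 8 in WT31_P5IV. All WT31 libraries were thus under the limit of detection and all WT31_P5IV libraries above it. With 3 counts against 40, the ratio was 14.2 with an exact 95% counting interval of 4.54 to 72.0.

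Thbs3 (chr3:89215180-89226837, plus strand) did not separate the lines. It had 16, 7, 11, 18 and 5 counts in WT31 and 9, 11, 16, 8 and 15 in WT31_P5IV, with a log2 fold change of 0.14 (SE 0.34). The ranges overlapped, and the sign turned on the TPM scale, to -0.35 with limma on log2(TPM + 0.1). Thbs3 overlaps Mtx1 on the other strand, which had 906 to 1364 counts and shares 236 words of 31 bases with it, so the low counts of Thbs3 are uncertain. No such word was shared among Thbs1, Thbs2 and Thbs3. Per length, Thbs1 supplied 97.2 ± 1.55% of the TPM of these 3 genes in WT31 and 98.0 ± 0.879% in WT31_P5IV, and Thbs2 supplied 0.0409 ± 0.0494% and 0.273 ± 0.0588% (mean ± SD, n = 5). Thbs2 thus remained a minor part of thrombospondin RNA in WT31_P5IV as well.

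Fibronectin (Fn1, chr1:71585520-71653200, minus strand) is the fibril-forming ligand of the integrin pairs of Itga5 or Itga4 with Itgb1. Fn1 had 7042, 9116, 8586, 7533 and 7525 counts in WT31 and 6826, 6794, 7322, 6036 and 6827 in WT31_P5IV. The lines overlapped in CPM, with 276 to 345 against 254 to 294, and the log2 fold change was -0.14 (SE 0.06). As with Tnc, WT31 replicates 2 and 3 were the highest, and without them the log2 fold change was -0.06. It was the one gene of the 10 that crossed the threshold of an adjusted p of 0.05 back and forth, past it in 11 of 20 alternative fits and short of it in the fit reported here.

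Periostin and the transforming growth factor beta-induced protein, the products of Postn and Tgfbi, are fasciclin-domain proteins that bind integrins. Postn (chr3:54361109-54391037, plus strand) had 608, 755, 587, 587 and 603 counts in WT31 and 465, 416, 557, 411 and 473 in WT31_P5IV, with a log2 fold change of -0.34 (SE 0.08). The highest WT31_P5IV library, at 22.4 CPM, lay just under the lowest WT31 library in CPM. Tgfbi (chr13:56609523-56639562, plus strand) had 162, 154, 134, 175 and 169 counts in WT31 and 62, 77, 73, 74 and 70 in WT31_P5IV, with a log2 fold change of -1.06 (SE 0.13). Of the fitted genes it lay just past a log2 fold change of -1, and Sparc lay nearest to it on the other side. Both fasciclin genes were lower in WT31_P5IV, Tgfbi by 2.09-fold and Postn by 1.27-fold.

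Osteonectin, encoded by Sparc (chr11:55394500-55423183, minus strand), binds collagen and calcium and is made in quantity by melanoma cells. Sparc had 75877 to 81456 counts in WT31 and 43959 to 49919 in WT31_P5IV. In CPM the libraries of WT31 read 3130, 2950, 2980, 3200 and 3230 and those of WT31_P5IV 1910, 2140, 1980, 1850 and 1920. The log2 fold change was -0.66 (SE 0.06), a 1.58-fold lower level with no overlap. Sparc was by far the most abundant of the 10 genes per length and supplied 94.7 ± 0.361% of their summed TPM in WT31 and 93.1 ± 0.209% in WT31_P5IV (mean ± SD, n = 5). The sum of the 10 genes was 2430 ± 27.9 TPM in WT31 and 1390 ± 63.5 TPM in WT31_P5IV, and without Sparc 129 ± 7.45 and 95.6 ± 3.45 TPM.

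**Figure D2:**
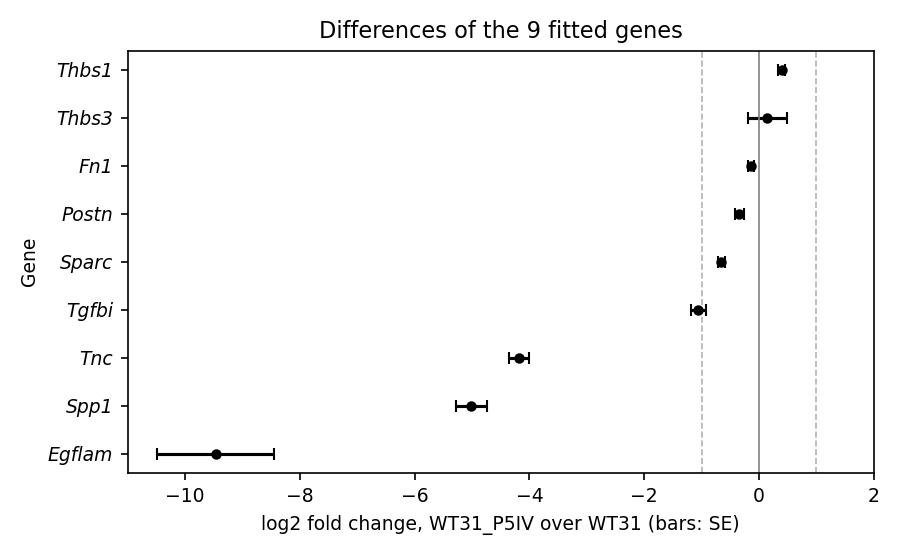
Log2 fold change of WT31_P5IV over WT31 for the 9 fitted genes, with bars of 1 standard error and dashed lines at -1 and 1. Egflam, Spp1 and Tnc lie at -9.47, -5.01 and -4.18, and the other 6 genes lie between -1.06 and 0.40. The value of Egflam rests on 2 counts in WT31_P5IV.

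Levels can be ordered only per length, in TPM. In WT31 the order from the highest mean was Sparc (2300 TPM), Fn1 (67.8), Thbs1 (23.9), Postn (13.8), Spp1 (11.2), Egflam (4.42), Tgfbi (3.80), Tnc (3.08), Thbs3 (0.665) and Thbs2 (0.0106). The ranges of neighbours overlapped between Postn and Spp1, Egflam and Tgfbi, and Tgfbi and Tnc. In WT31_P5IV the order was Sparc (1300 TPM), Fn1 (55.5), Thbs1 (27.8), Postn (9.57), Tgfbi (1.69), Thbs3 (0.485), Spp1 (0.307), Tnc (0.152), Thbs2 (0.0774) and Egflam (0.00701), where only Thbs3 and Spp1 overlapped. The first 4 kept their places. Spp1 went from the fifth to the seventh place and Egflam from the sixth to the last. Sparc ranked 42 among all genes in WT31 and 86 in WT31_P5IV by mean TPM.

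**Figure D3:**
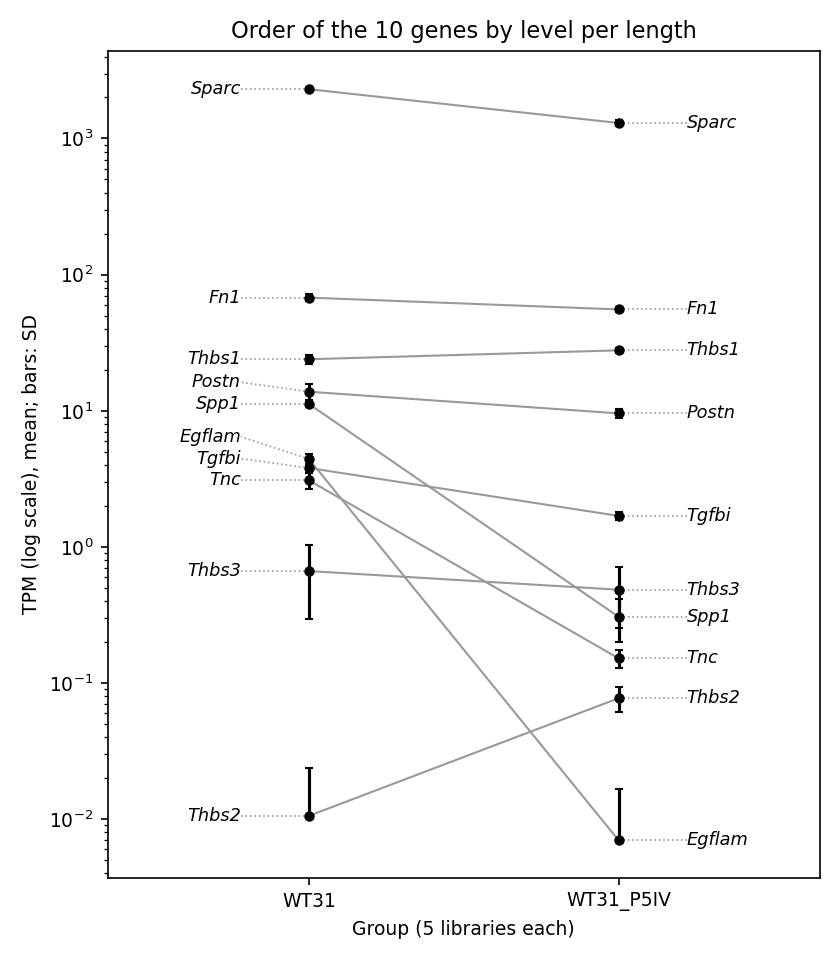
Mean TPM of the 10 genes on a log axis in WT31 (left) and WT31_P5IV (right), 5 libraries each, with bars of 1 SD and a line per gene. Bars run upward only where the SD is larger than the mean. Sparc, Fn1, Thbs1 and Postn hold their order, the lines of Spp1, Tnc and Egflam slope down across those of other genes, and that of Thbs2 slopes up.

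The TPM scale moved the centre of the differences. With limma on log2(TPM + 0.1) a fitted gene's log2 fold change differed from that on counts by a median of -0.167. On that scale Sparc had a log2 fold change of -0.83 and Postn of -0.51, which are larger in size than on counts. The larger pseudocount in log2(TPM + 1) brought the low genes toward 0, with -1.82 for Tnc and -2.43 for Egflam. Over all fits Thbs1 stayed higher in WT31_P5IV, at 0.22 with log2(TPM + 1) to 0.43 on counts without WT31 replicates 2 and 3.

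The ratio of counts to TPM follows the length of the transcripts that the reads were assigned to, and was put on a scale in bases set from 404 genes with 1 annotated transcript. The scale is approximate and ran above the longest annotated transcript for Tnc, Thbs1 and Thbs2, so only differences between libraries of 1 gene are read from it. For Fn1, which has 17 annotated transcripts of up to 8315 bases, this length was 6913, 7765, 7607, 6941 and 6968 bases in WT31 and 6827 to 7279 bases in WT31_P5IV. The longest values again came from WT31 replicates 2 and 3, and the lines overlapped. For Tnc it was 7027 to 7328 bases in all 10 libraries, against a longest annotated transcript of 7106 bases, and for Thbs1 5983 to 5996 bases against 5848. For Egflam it was 3594 to 4559 bases in WT31, which spans more than the values of Tnc or Thbs1. For Thbs3 it ran from 502.7 to 2916 bases over libraries with few counts. Lengths are kallisto's assignment and no transcript was measured on its own.

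Libraries of a line differed from each other in a gene-dependent way. In WT31, replicates 2 and 3 were both above the other 3 libraries for Tnc, Fn1 and Thbs1, with 92.9 to 95.7 CPM against 86.1 to 89.9 for Thbs1. They were both below the others for Sparc, at 2950 to 2980 against 3130 to 3230 CPM, and for Tgfbi, at 5.26 to 5.83 against 6.35 to 6.88 CPM. Leaving out both moved the log2 fold change of Sparc to -0.71 and of Tgfbi to -1.18. What sets these libraries apart is not given by the labels, and its part in the values was not tested.

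**Figure D4:**
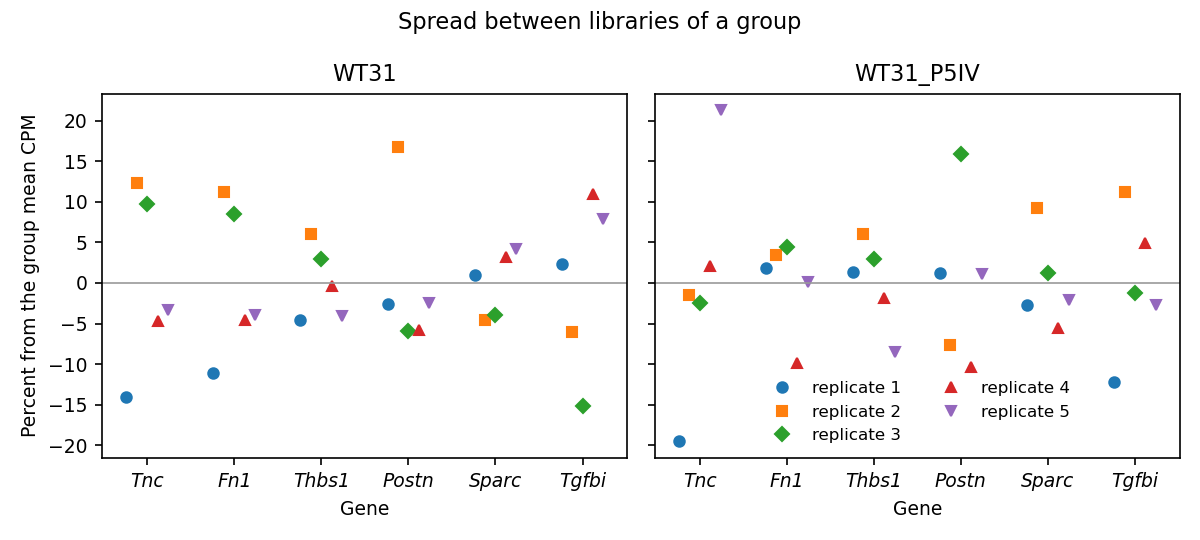
Percent difference of each library from the mean CPM of its line for 6 of the genes, in WT31 (left) and WT31_P5IV (right), with a symbol per replicate number. In WT31, replicates 2 and 3 lie above the mean for Tnc, Fn1 and Thbs1 and below it for Sparc and Tgfbi. Replicate 2 stands alone for Postn.

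The gene lists below were drawn up with earlier results of these data known, so their splits and adjusted p-values are descriptions. Other matrix glycoproteins moved in both directions. Of 73 genes on this list, 36 were fitted, 20 rose and 13 fell past an edgeR adjusted p of 0.05, beside 34.6% and 33.9% of all genes, and the median log2 fold change was 0.29 against 0.01 over all fitted genes. With limma on either TPM scale the split was 16 higher and 16 lower, against 2915 and 5946 or 2910 and 5957 of all genes. The largest decreases with separate ranges were in Frem2, a basement membrane protein of the Fraser complex, at -2.45 (SE 0.14, edgeR adjusted p = 5.32e-11), in the matricellular Ccn4, at -1.69, in the insulin-like growth factor binding protein Igfbp7, at -1.60, and in the elastic fiber protein Emilin1, at -1.53. Ltbp4, which holds latent transforming growth factor beta in the matrix, rose from 23.1 ± 1.09 to 85.0 ± 3.67 CPM (log2 fold change 1.88, edgeR adjusted p = 1.21e-13). Of the 37 genes not fitted, 26 had 3 counts or fewer in every library, among them the other tenascins Tnr, Tnn and Tnxb, the pentameric thrombospondins Thbs4 and Comp, and the osteopontin relatives Ibsp, Dmp1, Mepe and Dspp. Of the listed tenascins, osteopontin relatives and pentameric thrombospondins, only Tnc, Spp1 and Thbs3 were above 3 counts in any library.

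Receptors of the 10 proteins passed the test more often as higher than as lower. Of 33 receptor genes 24 were fitted, 14 rose and 5 fell in edgeR's quasi-likelihood test, beside 34.6% and 33.9% of all genes, and their median log2 fold change was 0.27. This split was 9 and 7 for TPM with the pseudocount of 0.1, 9 and 6 with that of 1, and 12 and 7 with an offset for transcript length. Over all genes the TPM splits were the 2915 and 5946, and 2910 and 5957, given above, which lean to lower. The fibronectin and osteopontin receptor subunit Itga4 rose from 625 ± 83.9 to 1510 ± 96.6 CPM (log2 fold change 1.27, edgeR adjusted p = 2.93e-09). Smaller increases were found in the subunits Itga5 (0.66), Itgb1 (0.48) and Itgav (0.44), in the osteopontin receptor Cd44 (0.56), in the syndecan Sdc1 (0.98) and in dystroglycan, Dag1 (0.62), the receptor of pikachurin.

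Ptprz1, Itgb5, Itga9 and Cd47 were among the 5 fitted receptors that fell, while 14 rose. The list was not split by ligand. Ptprz1, a receptor phosphatase that binds tenascin C, fell from 13.8 ± 1.27 to 1.40 ± 0.229 CPM (log2 fold change -3.30, edgeR adjusted p = 3.19e-12). Itga9, a subunit that binds tenascin C and osteopontin, fell by 0.80 on the log2 scale, and the thrombospondin receptor Cd47 fell by 0.44. The vitronectin receptor subunit Itgb5 fell by 1.77 on the same scale, with 29 to 48 counts in WT31 and 8 to 15 in WT31_P5IV. Itgb3 read 5.09 ± 0.366 CPM in WT31 and 5.04 ± 0.821 CPM in WT31_P5IV (edgeR adjusted p = 0.912), and its sign depended on the scaling. Cd36, which also binds thrombospondin 1, had 0 to 1 counts.

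Enzymes that fold, glycosylate, cleave or cross-link such proteins were mostly higher in WT31_P5IV. Of 25 fitted genes of 32, 20 rose and 3 fell in edgeR's quasi-likelihood test, beside 34.6% and 33.9% of all genes, with a median log2 fold change of 0.46. On either TPM scale 17 were higher and 4 lower. Pomt2, one of the mannosyltransferases that prepare dystroglycan for ligand binding, rose by 0.88 and Pofut1, a fucosyltransferase of epidermal growth factor-like repeats, by 0.85 on the log2 scale. Loxl4, a lysyl oxidase, rose from 0.257 ± 0.0804 to 0.786 ± 0.112 CPM (edgeR adjusted p = 3.48e-05). That rests on 4 to 10 counts in WT31 and 15 to 21 in WT31_P5IV. The tolloid protease Tll1 fell by 2.29 and the transglutaminase Tgm2, which cross-links fibronectin, by 1.16 on the log2 scale. Tgm2 had 17 to 22 counts in WT31 and 5 to 10 in WT31_P5IV.

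Regulators of matrix genes passed the test more often as lower than as higher. Of 54 genes 49 were fitted, 11 rose and 27 fell in edgeR's quasi-likelihood test, beside 34.6% and 33.9% of all genes, and the median log2 fold change was -0.25. On TPM the split was 7 and 32 with the pseudocount of 0.1 and 7 and 33 with that of 1, where all genes lean to lower as well (2915 and 5946, and 2910 and 5957). The mesenchymal factor Twist2 fell from 4.38 ± 0.706 to 0.0671 ± 0.0489 CPM, with no WT31_P5IV library above the limit of 3 counts. Twist1, named after its values were seen, was not fitted and had 6 to 12 counts in WT31 and 0 in every WT31_P5IV library. Prrx2, a homeobox factor of mesenchyme, fell by 2.06 and Snai2, a zinc finger factor of the neural crest, by 1.53 on the log2 scale. Runx1 rose from 0.922 ± 0.185 to 4.16 ± 0.342 CPM (log2 fold change 2.18, edgeR adjusted p = 3.86e-09). Its more abundant relatives on the list fell, Runx3 from 66.5 to 31.3 CPM (log2 fold change -1.09) and Runx2 from 37.1 to 29.2 CPM (-0.34). Hoxa9 rose from 0.0784 ± 0.0286 to 1.28 ± 0.358 CPM, with no WT31 library above the limit of 3 counts.

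**Figure D5:**
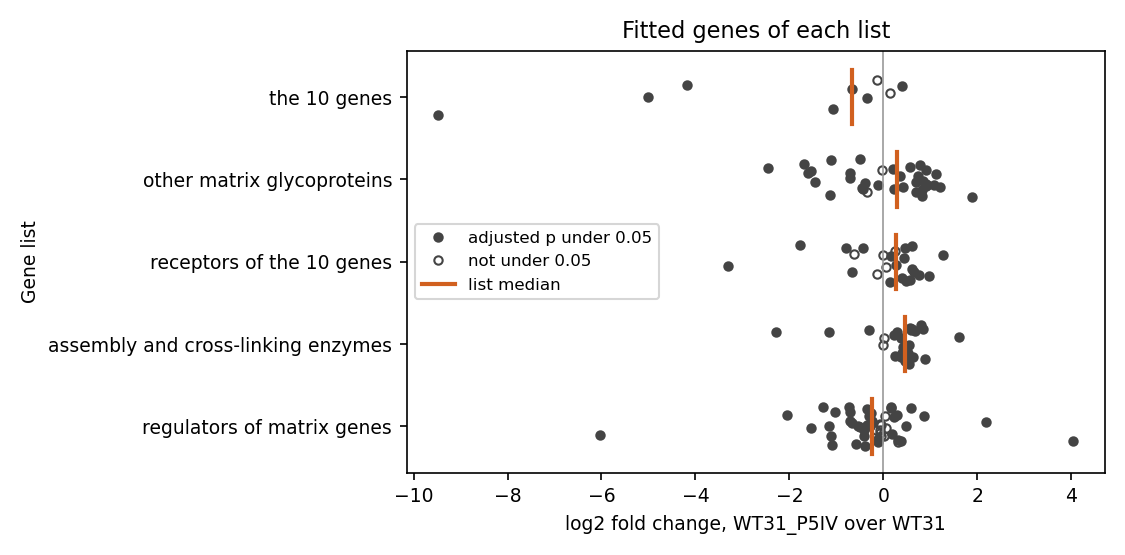
Log2 fold change of WT31_P5IV over WT31 for every fitted gene of the 10 and of the 4 lists, with filled points for an adjusted p under 0.05 and orange lines at the list medians. Enzymes lie mostly right of 0 with a median of 0.46, regulators mostly left of it with a median of -0.25. Vertical scatter within a list has no meaning.

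The surroundings of the 10 genes in the genome held 102 other annotated genes within 200 kb, of which 32 were fitted. In edgeR's quasi-likelihood test 15 rose and 7 fell, beside 34.6% and 33.9% of all genes. The 22 called neighbors make up a share near the 68.5% of all fitted genes. Most of these counts come from 1 locus. Thbs3 had 22 of the 32 fitted neighbors, of which 13 rose and 4 fell, so the totals say little about the other 9 genes. No gene within 200 kb of Tnc, Egflam, Thbs1 or Thbs2 was fitted. Both neighbors of Spp1 that were fitted rose, Pkd2 by 0.41 and D930016D06Rik by 0.55 on the log2 scale, while Spp1 fell. Next to Sparc, G3bp1 had a log2 fold change of -0.14 and was the 1 of 3 fitted neighbors with an adjusted p under 0.05. Beyond a log2 fold change of 1 lay only Hcn3 (1.46, edgeR adjusted p = 5.65e-05) and Fam189b (1.05, edgeR adjusted p = 7.64e-05), both near Thbs3.

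The 3 fitted genes most like Tnc over the 10 libraries were Cxcl15, Emp1 and Ccnd2, with Pearson correlations of log2 CPM of 0.9988, 0.9985 and 0.9983. The 10 libraries share the separation of the lines, and 260 genes had a correlation above 0.99. Within the lines, after the line means were taken off, the correlations with Tnc were 0.78, 0.87 and 0.69. The 3 genes were picked over these same libraries, so that choice partly sets the within-line values. None is given for other genes. WT31 replicates 2 and 3, which stood apart for Tnc, are among the libraries used. Ccnd2, the cell cycle gene cyclin D2, read 182 ± 8.75 CPM in WT31 and 28.3 ± 0.567 CPM in WT31_P5IV. Cxcl15, a chemokine gene, read 48.1 ± 1.38 and 7.85 ± 0.479 CPM.

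Because stromal cells also make these glycoproteins, markers of other cell types were summed in every library. The 10 melanocyte markers summed to 17800 to 19200 CPM in WT31 and 23200 to 26800 CPM in WT31_P5IV. All 10 were fitted and 8 had an edgeR adjusted p under 0.05, of which 4 rose and the rest fell. The 15 fibroblast and stellate cell markers summed to 3.97 to 4.98 CPM in WT31 and 6.28 to 7.48 CPM in WT31_P5IV. Of the 6 fitted markers 4 rose, with log2 fold changes of 4.07 (Col3a1), 1.47 (Acta2), 1.4 (Col1a2) and 1.0 (Col1a1). Col3a1 had 0 to 3 counts in WT31 and 10 to 18 in WT31_P5IV. Lum, Dpt, Pdpn, Reln and Rgs5 had 3 counts or fewer in every library. Of the 10 hepatocyte markers 1 was fitted, and their sum was 0.431 to 0.792 CPM in WT31 and 0.684 to 1.56 CPM in WT31_P5IV. The hepatocyte gene Alb had 0 counts in WT31 and 0 to 9 in WT31_P5IV. The 10 endothelial markers summed to 225 to 255 CPM in WT31 and 372 to 423 CPM in WT31_P5IV, nearly all of it from Eng, while Cdh5, Kdr, Tek, Emcn, Lyve1 and Clec4g had 3 counts or fewer. The 9 macrophage and leukocyte markers used summed to 4.92 to 6.76 CPM in WT31 and 4.38 to 6.32 CPM in WT31_P5IV, with Ptprc, Adgre1, Cd14, Clec4f, Itgam and Cd3e at 3 counts or fewer. The 2 fitted markers of this list moved apart, since Lyz2 fell from 92 to 129 counts to 21 to 30 (log2 fold change -2.01, edgeR adjusted p = 7.64e-09) and Cd68 rose from 20 to 50 counts to 80 to 117 (1.45, edgeR adjusted p = 1.16e-05). The part of these cell types in the levels of the 10 genes was not tested.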

How the data were processed

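RNA-seq of 10 libraries from cultured WT31 and WT31_P5IV melanoma cells was used. According to the labels and the study's methods, the authors trimmed reads with Trim Galore and quantified them with kallisto against GRCm38.p6. They deposited estimated counts and TPM values, both summed per gene. Of 55385 gene identifiers, 55144 were found in GENCODE M21, from which symbols and positions were taken.

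The deposited estimated counts were rounded, kept by filterByExpr, scaled by TMM and compared in edgeR 4.0.16 (R 4.3.3) by the quasi-likelihood test, with Benjamini-Hochberg adjustment over 13620 genes. Standard errors came from the fitted weights and the quasi-likelihood dispersion, held at or above 1. Alternatives were DESeq2 1.42.0, limma 3.58.1 (voom, and log2 of the deposited TPM), upper-quartile scaling, other filters, a length offset, the replicate number as a block and leaving out libraries. Scripts were tested on simulated data. Words of 31 bases were used for sequence shared between genes, and upstream sequences were RefSeq's (GRCm38.p6), with 8 of the 10 genes matched.

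The 10 genes and the lists were chosen with earlier results of these data known. Named are the 10 genes, of each list the 5 called genes with the largest change and no overlap, 9 fixed receptors, and neighbors and likeness genes by the stated limits. Other genes are named by family or as markers. 1 leukocyte marker is not reported here.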

Additional observations from a re-analysis of the deposited data

Results flagged for a closer look

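2 values stood apart from the other 4 libraries of their line by Dixon's test at the 95% level, which flags about 1 in 20 groups by chance. 80 groups of 5 libraries were tested, so 2 are no more than chance gives. Postn read 28.6 CPM in WT31 replicate 2, against at most 23.9 CPM in the other WT31 libraries, and the log2 fold change of Postn was -0.29 without that library. Cxcl15, one of the genes most like Tnc, read 7.02 CPM in WT31_P5IV replicate 1, against 7.92 to 8.26 CPM in the others.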

How the results depend on the processing

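The replicate numbers did not pair the lines, since deviations of same-numbered libraries correlated at -0.096 to 0.178 and not every library was closest to its own number, and with the replicate number as a block 9380 genes were called in place of 9327. Over 20 alternatives, 789 of 811 log2 fold changes of the named genes kept their direction and their side of the threshold. 11 values, all of Fn1, passed the threshold where the reported fit did not. 11 reversed, all in Thbs3 and Itgb3, neither of which was past the threshold. Thbs3 read -0.35 and -0.15 with limma on log2(TPM + 0.1) and log2(TPM + 1), -0.34 with the length offset, -0.0734 without WT31 replicates 2 and 3 and -0.0569 to 0.357 with single libraries left out. Itgb3 read 0.0128 with upper-quartile scaling and -0.107 to 0.0298 with single libraries left out. On log2(TPM + 0.1) and log2(TPM + 1), genes higher in WT31_P5IV numbered 2915 and 2910 in place of 4709, receptors 9 and 9 in place of 14, and regulators 7 and 7 in place of 11. With neither scaling nor filter in voom, and with every gene of at least 1 count in edgeR, 2 of the 10 genes were higher in place of 1, since Thbs2 was then tested. Genes past a log2 fold change of 1 numbered 2513 and 2332 there, 701 with at least 10 counts in every library and 465 on log2(TPM + 1), in place of 1251. That filter of 10 counts left out Egflam, Spp1, Thbs2 and Thbs3. The fit without WT31 replicates 2 and 3 was chosen after the data were seen and called 9407 genes. Of the 10 genes, depth limits Thbs2, Thbs3 and, in WT31_P5IV, Egflam and Spp1, whose values rest on few counts. Loxl4, Tgm2 and Itgb5 are among the named genes of the lists that rest on few counts as well.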
